A study of Mus musculus with 21 samples.

Results

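Bone marrow cells that carried the Aire reporter (AGF+) were compared with bone marrow total dendritic cells (DCs) by RNA sequencing, 3 libraries against 3. These 6 libraries were taken by their titles from the 21 of the series, the AGF+ group without the libraries of Aire-deficient mice. All 6 came from C57BL/6 mice of 6 weeks, labelled male, with the genotype AGF-KI/+ (KI/+), so that both groups carry 1 copy of the reporter allele knocked in at Aire. AGF+ cells were sorted from the B220−CD24+ fraction with low or no CD11b, whereas total DCs were sorted as B220−CD11c+MHCII+, a population that the design text calls AGF−. The groups thus differ in the reporter and in the gate, and differences due to either cannot be told apart. The labels state independent biological replicates, and the main test has no term for replicate number. A further 3 libraries of marrow AGF+ cells from AGF-KI/- mice, labelled AireKO, entered the fit to share the estimate of spread, and lymph node AGF+ and AGF− cells of KI/+ mice were used for side-by-side values.

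Aire is a transcriptional regulator best known from medullary thymic epithelial cells, where it drives the display of tissue antigens to developing T cells. DCs arise in bone marrow from Flt3-expressing progenitors and divide into conventional subsets, cDC1 and cDC2, and plasmacytoid DCs, the last under the E protein Tcf4 (E2-2). A further state, marked by Ccr7, Fscn1 and Ccl22, is entered by DCs that mature and migrate.

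Each of the 6 libraries held 5091945 to 5911950 counts. Levels are given in CPM, the unit of library-scaled counts, over TMM effective library sizes. A gene at 1 CPM therefore rested on 5.08 to 6.04 counts, and a count of 0 in a library allowed up to 0.497 to 0.591 CPM. AGF+ libraries had at least 1 count for 24020, 24087 and 24089 genes and total DC libraries for 22718, 22590 and 22589. The first principal component of the 9 marrow libraries, with 75.6% of the variance, separated total DCs from both AGF+ groups. Replicates differed by more than counting noise in every pair (chi-square per degree of freedom 6.22 to 16.6). The library numbered 2 of each group stood apart by sex-linked genes: Xist was at 2506 CPM in the AGF+ one and 1869 CPM in the total DC one, with 4 Y-linked genes summing to 0.714 and 0.189 CPM, while the other 4 libraries had Xist at 2.48 CPM or less and the Y-linked genes at 399 to 524 CPM. Both groups thus held 1 library that goes against the label male. The AireKO library numbered 2 (Xist at 2854 CPM) was left out with these wherever results without the libraries numbered 2 are given. Each group then held fewer libraries, and the part of this in the shifts was not tested apart from that of sex. Such shifts are given below for the list counts and for the calls of the 228 genes that were followed through the alternative settings.

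Aire, on the minus strand of chr10:78030022-78043610 (GRCm38), was counted at 109, 101 and 73.7 CPM in the AGF+ libraries and at 1.18, 0.758 and 0.892 CPM in the total DC libraries. The groups lay far apart, and the log2 fold change was 6.61 ± 0.30 (SE; adjusted p = 1.9e-07, edgeR quasi-likelihood test with Benjamini-Hochberg adjustment over all genes tested). AGF+ cells were sorted by a reporter at Aire itself, so this difference follows from the sort and is given as a description. Marrow AGF+ cells of AireKO mice had a mean of 13.5 ± 4.05 CPM (SD, n = 3). Dnmt3l, a cofactor of DNA methyltransferases, lies on the other strand with a span that overlaps the start of Aire and stood at 7.68, 8.03 and 7.45 CPM against 0, 0.189 and 0.357 CPM. Its fold change was 41.1, with a counting interval of 13.7 to 202. With no strand setting of the counting known, reads of Aire and Dnmt3l over their overlap cannot be told apart. Icosl, the ligand of the T cell costimulator Icos and the next gene on that strand (chr10:78069302-78083913), was at 484, 476 and 474 CPM in AGF+ cells and 43.5, 53 and 39.6 CPM in total DCs, a rise of 3.40 ± 0.14 (adjusted p = 1.6e-07). Of the 13 tested genes of the neighbourhood 4 rose and 3 fell, near the shares of all tested genes (23.0% higher, 21.3% lower). The 4 included Aire itself and Trappc10, a subunit of a vesicle tethering complex (0.46 ± 0.10). The 3 falls included the protease inhibitor Cstb (-1.51 ± 0.19). Without the libraries numbered 2 only 1 of the 3 falls was called, and Trappc10 was not (0.44, adjusted p = 0.0729).

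The 250 bases before the RefSeq start of Aire and of a pair of plasmacytoid DC genes that rose are shown because Tcf4, itself higher in AGF+ cells, encodes a protein that binds E boxes. The pair was chosen among the genes that hold a match. They were read from RefSeq promoters of GRCm38.p6, 5′ to 3′ along the gene, at chr10:78043611-78043860 (minus strand), chr7:55767934-55768183 (plus strand) and chr9:123766961-123767210 (plus strand). Capitals mark CAGGTG or its reverse complement CACCTG, an E box form. Other E box forms, such as cagctg in Aire and cacgtg in Siglech, were not searched for and are not marked.
Aire: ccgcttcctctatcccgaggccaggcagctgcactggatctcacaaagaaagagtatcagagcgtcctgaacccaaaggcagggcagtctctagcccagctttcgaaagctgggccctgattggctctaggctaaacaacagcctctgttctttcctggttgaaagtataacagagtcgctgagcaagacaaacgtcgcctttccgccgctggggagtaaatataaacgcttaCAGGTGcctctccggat
Siglech: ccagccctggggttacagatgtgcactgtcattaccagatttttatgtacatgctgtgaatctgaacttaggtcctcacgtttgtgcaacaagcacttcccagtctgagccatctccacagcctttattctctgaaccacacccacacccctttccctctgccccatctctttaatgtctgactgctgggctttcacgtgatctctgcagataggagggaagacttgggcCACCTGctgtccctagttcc
Ccr9: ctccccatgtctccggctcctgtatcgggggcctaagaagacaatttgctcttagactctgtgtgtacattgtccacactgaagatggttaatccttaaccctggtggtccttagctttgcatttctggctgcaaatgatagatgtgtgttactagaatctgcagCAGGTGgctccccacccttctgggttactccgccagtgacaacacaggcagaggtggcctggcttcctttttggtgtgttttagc
The match in Aire starts 17 bases, and that in Siglech 20 bases, before the gene start. Of the 14 plasmacytoid DC genes that rose, 9 had a promoter in the table and 3 of these held a match on either strand, beside 17.2% of all 32851 promoters. The 3 are Siglech, Ccr9 and Klk1, and the others of the 9 held no match to this form. Whether Tcf4 acts on any of these genes was not tested. A match is a description of the letters and not a measured binding site.

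Among 15503 genes tested, 6866 (44.3%) were called at an adjusted p under 0.05. AGF+ cells were higher for 3558 (23.0%) and lower for 3308 (21.3%), and the calls of at least 2-fold leaned to rises, with 2218 higher (14.3%) and 1315 lower (8.48%). Replicate values did not overlap for 51.6% of genes, 26.9% higher and 24.7% lower. These shares are the background for every list below, whose counts cover only the members that passed the filter on low counts. Members near 0 in one group passed it through the other, so the counts of lists with such members are in part set by the filter. Some genes are members of several lists. The median log2 fold change of all genes was 0.02, and 0.13 when scaled by library size alone, where 61.4% of calls were rises (4222 higher, 2649 lower) beside 51.8% under TMM. Without the libraries numbered 2 the calls fell to 2166 higher and 1692 lower.

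**Figure D1:**
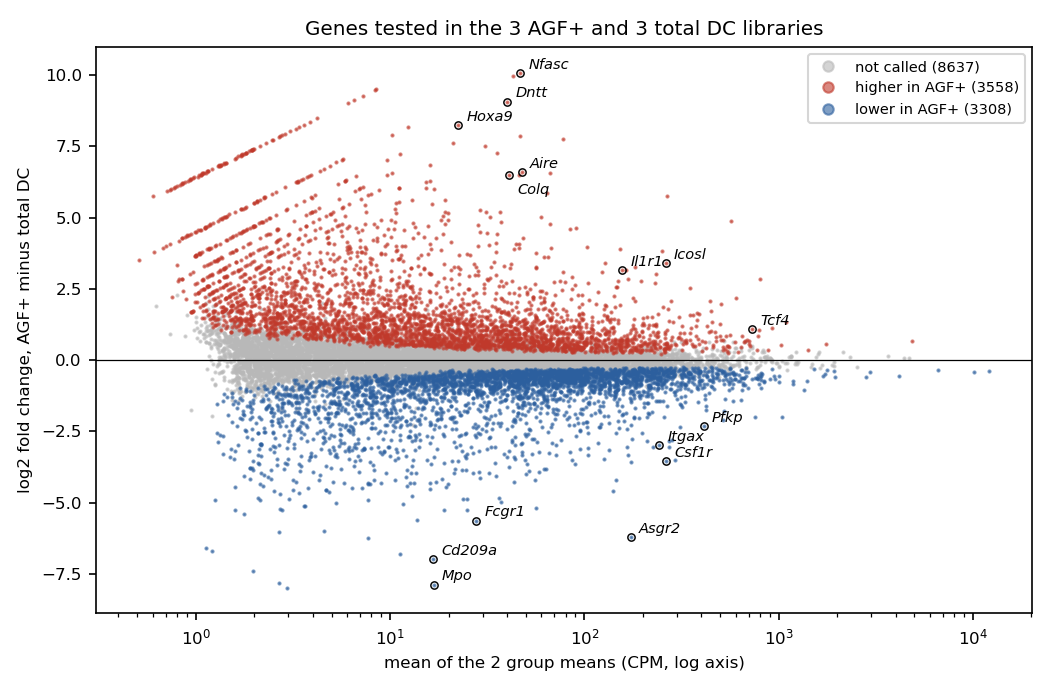
Mean level (CPM, log axis) against log2 fold change, AGF+ minus total DC, for each gene tested; points are genes, red and blue those called higher or lower in AGF+ cells. Nfasc, Dntt and Hoxa9 stand at the top, Mpo, Cd209a and Asgr2 at the bottom, and diagonal rows at low levels are genes with 0 or few counts in total DCs.

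The 12 largest rises, among called genes of at least moderate level, held genes that total DCs nearly lacked. Nfasc, neurofascin, an adhesion molecule known from axons, was at 112, 102 and 67.3 CPM in AGF+ libraries and 0, 0.189 and 0 CPM in total DC libraries, a 1474-fold difference with a counting interval of 264 to 58274. Dntt, the terminal transferase that adds bases at V(D)J joints, was at 52.2, 90.5 and 97.6 CPM against 0.197, 0.189 and 0 CPM (648-fold, counting interval 179 to 5357). Every AGF+ library lay above every total DC library for both genes. Cacna1h, a T-type calcium channel subunit, Shisa2 and Ache, acetylcholinesterase, had no count in total DCs and were at least 90.3-fold, 77.1-fold and 70.4-fold higher. Hoxa9, a homeobox gene of progenitors (357-fold, interval 98.4 to 2951), Lax1, an adaptor of lymphocyte receptor signalling (396-fold, 70.7 to 15682), Slc6a7 (317-fold, 56.6 to 12575) and Nsg2 (225-fold, 76.6 to 1093) also rested on 1 to 3 counts in total DCs. Khdc1a, which has close paralogs that could share reads, rose by 7.86 ± 0.41 on the log2 scale and Ehd3 by 7.51 ± 0.41. All 12 stayed called when any 1 of the 6 libraries was left out. In AireKO AGF+ cells the means were 91.9 CPM for Nfasc, 61.0 CPM for Dntt and 31.9 CPM for Ehd3, beside 93.5, 80.1 and 61.4 CPM in KI/+ AGF+ cells, a comparison that was not tested here.

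The 12 largest falls were led by genes of myeloid cells. Mpo, myeloperoxidase of granulocyte precursors, was at 0.192, 0.179 and 0 CPM in AGF+ libraries and 85.7, 3.03 and 11.4 CPM in total DC libraries, so that 1 total DC library carried most of its counts (272-fold, counting interval 74.8 to 2250). Cd209a, a C-type lectin of cDC2s and monocyte-derived cells, was at 0.192, 0.179 and 0.331 CPM against 11.2, 32.2 and 55.5 CPM (-6.99 ± 0.78). That total DC library, replicate 1, was the one with the least Cd209a and Cd209c, which have near-identical family members. Asgr2, a subunit of the asialoglycoprotein receptor, was at 6.91, 4.28 and 2.65 CPM against 224, 451 and 348 CPM (-6.22 ± 0.58, adjusted p = 1.3e-05). The inhibitory lectin Clec12a (-4.97 ± 0.41), the paired receptor Pilra (-5.24 ± 0.55), the high-affinity IgG receptor Fcgr1 (-5.63 ± 0.43), Fcrls (-5.06 ± 0.56), Ms4a6d (-5.20 ± 0.52), filamin C or Flnc (-5.61 ± 0.51) and the retinol dehydrogenase Dhrs9 (-4.88 ± 0.64) fell as well. Snhg7os, annotated on the strand opposite Snhg7, was 126-fold lower with a counting interval of 42.7 to 614, and without strand its reads cannot be told from those of its partner.

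**Figure D2:**
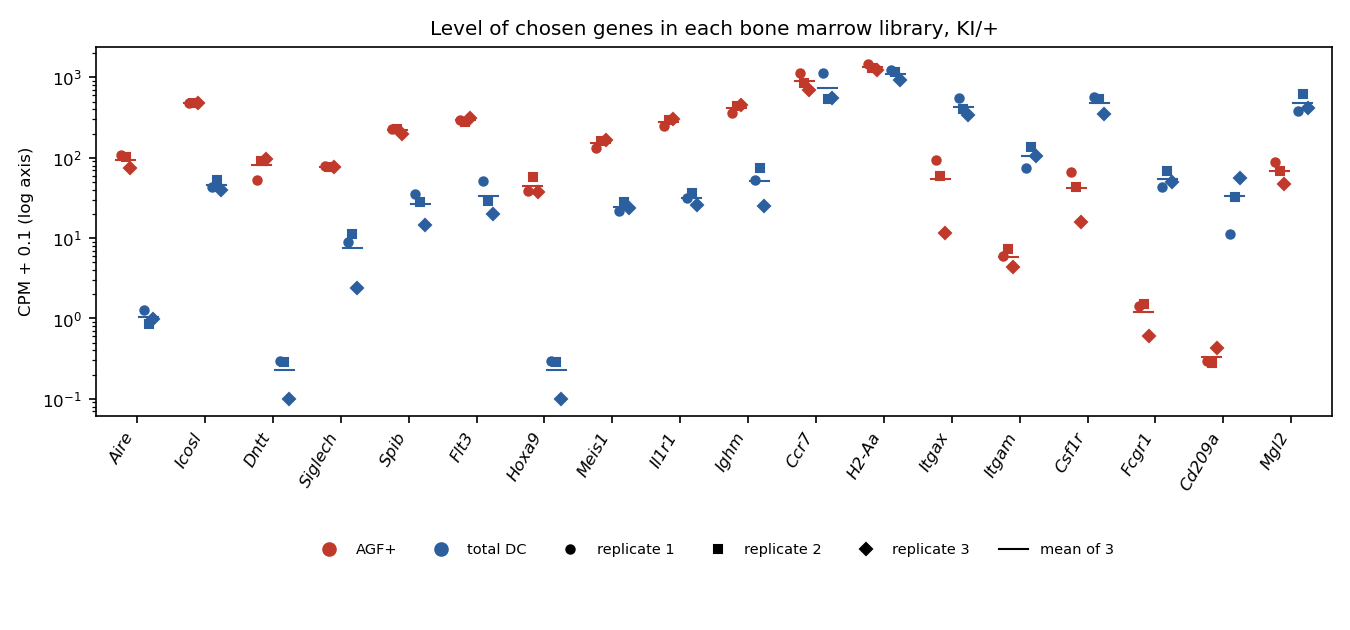
Level of 18 genes in each library (CPM + 0.1, log axis); symbols are replicates, red AGF+ and blue total DC, and lines are means of 3. The groups overlap for Ccr7 and H2-Aa; Itgax and Csf1r are lowest in AGF+ replicate 3.

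Genes of the sort markers are described without weight, since the gates used them. Itgam (CD11b) was at 5.95, 7.14 and 4.31 CPM in AGF+ cells and 75, 137 and 106 CPM in total DCs, and Itgax (CD11c) at 93.7, 58.5 and 11.6 CPM against 554, 399 and 343 CPM. Cd24a was lower in the CD24+ sort, at 155, 156 and 215 CPM against 242, 490 and 494 CPM (-1.22 ± 0.24). Ptprc was lower as well, at 446, 460 and 475 CPM against 690, 811 and 808 CPM. It encodes CD45, of which both marrow gates, as given, used only the B220 form, to exclude cells. Neither Cd24a (adjusted p = 0.0557) nor Itgax (adjusted p = 0.0631) was called without the libraries numbered 2. H2-Aa (0.27, adjusted p = 0.106), H2-Ab1 (0.35, 0.0881) and H2-Eb1 (0.11, 0.491) did not pass the test. H2-Aa (adjusted p = 0.0316) and H2-Ab1 (0.0357) passed it with library size alone. H2-Aa also passed without total DC replicate 1 (0.0482), and H2-Ab1 without AGF+ replicate 3 (0.0444), with no filter on low counts (0.0279) and with limma voom (0.0392). The means in AGF+ and total DC libraries were 1337 and 1112 CPM for H2-Aa and 1178 and 1094 CPM for H2-Eb1.

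Plasmacytoid DC genes were for the most part higher in AGF+ cells. Of 21 tested, 14 rose and 4 fell, with a median log2 fold change of 2.27. Dntt and Ly6d passed the filter on low counts through the AGF+ libraries, so that the count of rises is in part set by the filter. Siglech, a lectin of plasmacytoid DCs, was at 78.2, 76.2 and 75.9 CPM in AGF+ libraries and 8.86, 11 and 2.32 CPM in total DC libraries (3.38 ± 0.34). Spib, an Ets factor of plasmacytoid DCs and B cells, was at 231, 228 and 200 CPM against 35.7, 28.4 and 14.3 CPM (3.08 ± 0.25). The groups did not overlap for either gene. Tcf4 was at 917, 947 and 1117 CPM against 420, 512 and 464 CPM (1.09 ± 0.12, adjusted p = 3.3e-05). Runx2 (2.58 ± 0.14), the gut-homing receptor Ccr9 (2.02 ± 0.16), Bcl11a (2.76 ± 0.32), Ly6d (5.60 ± 0.56) and Lag3 (3.58 ± 0.43) rose with them. Zeb2 (-2.01 ± 0.24), a transcriptional repressor, Cd300c (-2.01 ± 0.24), Lair1 (-1.82 ± 0.22) and Ly6c2 (-2.93 ± 0.70) were lower. Bst2 (0.77, adjusted p = 0.0786) and Irf7 (0.42, 0.377) did not pass.

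Markers of cDC2s were mostly lower in AGF+ cells, and those of cDC1s were split. Of 13 tested cDC2 markers 10 fell and 2 rose (median -1.66). Cd209a passed the filter on low counts through the total DC libraries, so that the count of falls is in part set by the filter. The lectin Mgl2 was at 88.7, 68.2 and 46.9 CPM against 386, 628 and 420 CPM (-2.82 ± 0.26), and the factor Irf4 at 331, 310 and 298 CPM against 602, 552 and 597 CPM (-0.90 ± 0.11). Esam, an adhesion molecule of Notch-dependent cDC2s, rose, at 39.6, 41.9 and 29.8 CPM against 7.29, 3.6 and 1.78 CPM (3.15 ± 0.33), as did Relb (0.86 ± 0.24), and only 1 of these rises was called without total DC replicate 3 or without the libraries numbered 2. Of 12 tested cDC1 markers 4 rose and 3 fell, not far from the shares of all tested genes. Their defining members Xcr1, a chemokine receptor (5 counts in AGF+ and 21 in total DC libraries), and Clec9a, a receptor for dead cells (1 and 7 counts), were under the filter on low counts in both groups. The adhesion molecule Cadm1 rose (4.22 ± 0.26), Tlr3 (-2.89 ± 0.49) and Naaa (-3.13 ± 0.40) fell, and Batf3 (0.51, adjusted p = 0.102) and Irf8 (-0.28, 0.432) did not pass. Only 2 cDC1 markers rose without total DC replicate 2, or without the libraries numbered 2. Summed levels of the cDC1 list were 2243 to 2313 CPM in AGF+ and 2141 to 2489 CPM in total DC libraries.

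The defining genes of mature DCs were abundant in both populations. Ccr7, the receptor that guides DCs to lymph nodes, was at 1143, 849 and 697 CPM in AGF+ cells and 1132, 544 and 550 CPM in total DCs (0.27, adjusted p = 0.428), and the chemokine Ccl22 had means of 2352 and 1912 CPM (0.30, 0.0713). The groups overlapped for both genes. Of 33 tested members 12 rose and 4 fell (median 0.32). Fscn1, fascin, an actin bundler of mature DCs, was at 1198, 1089 and 904 CPM against 704, 422 and 418 CPM (1.05 ± 0.19), Lad1 at 578, 575 and 515 CPM against 256, 188 and 181 CPM (1.42 ± 0.14), and the ubiquitin ligase Birc2 rose by 1.18 ± 0.21. Ebi3, the shared chain of IL-27 and IL-35, rose by 1.11 ± 0.20 and Tmem150c by 2.57 ± 0.40. Ccl17 fell by 0.67, Pdcd1lg2, the checkpoint ligand PD-L2, by 1.00 and Ccl5 by 1.76. The number of rises was 19 without total DC replicate 1 and 6 without the libraries numbered 2, and the number of falls was 7 without total DC replicate 2.

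Genes of haematopoietic progenitors rose in number. Of 22 tested, 13 were higher and 3 lower (median 1.65). A further 3 were under the filter on low counts. Hoxa9 and Erg passed it through the AGF+ libraries, so that the count of rises is in part set by the filter. Meis1, a homeobox partner of the Hox factors, was at 133, 162 and 165 CPM in AGF+ libraries and 21.5, 28.2 and 23.9 CPM in total DC libraries (2.65 ± 0.15). Flt3, the receptor on which DC development depends, was at 291, 277 and 315 CPM against 50.8, 28.8 and 19.6 CPM (3.16 ± 0.26), and Kit, the stem cell factor receptor, at 331, 272 and 288 CPM against 129, 102 and 87.4 CPM (1.48 ± 0.14). All AGF+ libraries lay above all total DC libraries for these 3 genes. Hoxa7 (104-fold, counting interval 18.3 to 4154), the Ets factor Erg (4.67 ± 0.44) and the adhesion receptor Adgrg1 (3.58 ± 0.40) also rose. Cd34 (-0.69, adjusted p = 0.123) and Ly6a, which encodes Sca-1 (0.95, 0.207), did not pass the test, and Gata2 (-3.07 ± 0.52), Lmo2 (-1.85 ± 0.27) and Slamf1 (-1.90 ± 0.43) were lower. DC progenitor genes, a list that shares Flt3 and Kit, went the other way, with 3 of 17 higher and 9 lower. The 3 became 6 without total DC replicate 1, and 5 without AGF+ replicate 3 or with the replicate block. Csf1r, the M-CSF receptor, fell to 67.2, 42.8 and 15.7 CPM from 565, 534 and 349 CPM (-3.53 ± 0.46), and Notch2 fell by 0.83.

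Transcripts of lymphoid genes were higher in AGF+ cells although many defining markers of lymphocytes were near 0. Of 16 tested V(D)J and early B lineage genes 12 rose and 0 fell, of 15 B cell genes 12 rose and 2 fell (median 3.08), and of 13 T and NK cell genes 11 rose and 1 fell. A further 6, 3 and 10 members of these lists were under the filter on low counts, and members such as Rag1, Pax5, Ighd, Lck and Trac passed it through the AGF+ libraries, so that these counts of rises are in part set by the filter. Cd79b, Pax5 and Ebf1 are in both B lineage lists. Dntt and Spib are also counted among plasmacytoid DC genes, and Erg and Sox4 among progenitor genes. Immunoglobulin genes summed to 529, 639 and 684 CPM in AGF+ libraries and 57.7, 79.8 and 26.4 CPM in total DC libraries. Ighm, the constant gene of IgM, made up most of this, at 364, 439 and 449 CPM against 53.4, 75 and 25.1 CPM (3.03 ± 0.30). Blk, a Src kinase of B cells, was at 96.4, 99.8 and 80.2 CPM against 6.7, 5.11 and 2.5 CPM (4.28 ± 0.29), and Pax5, the factor of B cell identity, at 11.1, 13.6 and 18.1 CPM against 0.591, 0.189 and 0.713 CPM (4.77 ± 0.39). Rag1 was at 3.07, 5.71 and 4.97 CPM with no count in total DCs, at least 24.6-fold higher. By contrast Cd79a was at 0.96 CPM or less in AGF+ libraries, Mzb1 had no count, and Bank1, a B cell adaptor, had 0 counts in AGF+ and 2.95, 4.93 and 9.81 CPM in total DC libraries, at least 33.8-fold lower. Cd22 fell by 2.82.

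T cell receptor genes summed to 46.5, 46.9 and 47.7 CPM in AGF+ and 5.71, 4.93 and 3.75 CPM in total DC libraries. Thy1 was at 181, 283 and 291 CPM against 12.4, 76.7 and 36.9 CPM (2.58 ± 0.45), the kinase Lck at 10.9, 13.4 and 19.2 CPM against 0.394, 0.379 and 0.178 CPM (5.44 ± 0.39), and the protease Gzmb at 87.4, 56.2 and 41.7 CPM against 13, 18.8 and 10.3 CPM (2.14 ± 0.33). All 3 pairs of groups were apart. The CD3 chains Cd3e, Cd3d and Cd3g stayed under the filter at 0.893 CPM or less in AGF+ cells, and Cd2, Ncr1 and Trbc2 had no count in either group. In these bulk libraries more cells of a type and more RNA per cell cannot be told apart. Plasma cell genes were split, with Jchain, the joining chain of secreted IgM and IgA, higher (4.75 ± 0.28) and the syndecan Sdc1 lower (-3.96 ± 0.69). In all 2 of 7 rose, or 1 without any 1 of total DC replicates 2 and 3 and AGF+ replicate 3, and 3 fell.

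Some genes of group 3 innate lymphoid cells were higher as well. Il1r1, the signalling receptor of IL-1, was at 246, 299 and 300 CPM against 31.3, 36.8 and 25.5 CPM (3.17 ± 0.15), and Cxcr5, the receptor for the follicle chemokine Cxcl13, at 34.6, 36.2 and 33.3 CPM against 3.35, 3.41 and 3.21 CPM (3.38 ± 0.17). Values within each group were close for both genes. Tnfsf11, the RANK ligand, rose by 2.17 ± 0.30, Cxcr6 fell by 2.01, and Il7r (-0.08, adjusted p = 0.851) and Il23r (0.95, 0.0950) did not pass. In all 7 of 15 rose and 3 fell, 1 of them without the libraries numbered 2. The cytokines Il22 and Il17a had no count in either group.

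**Figure D3:**
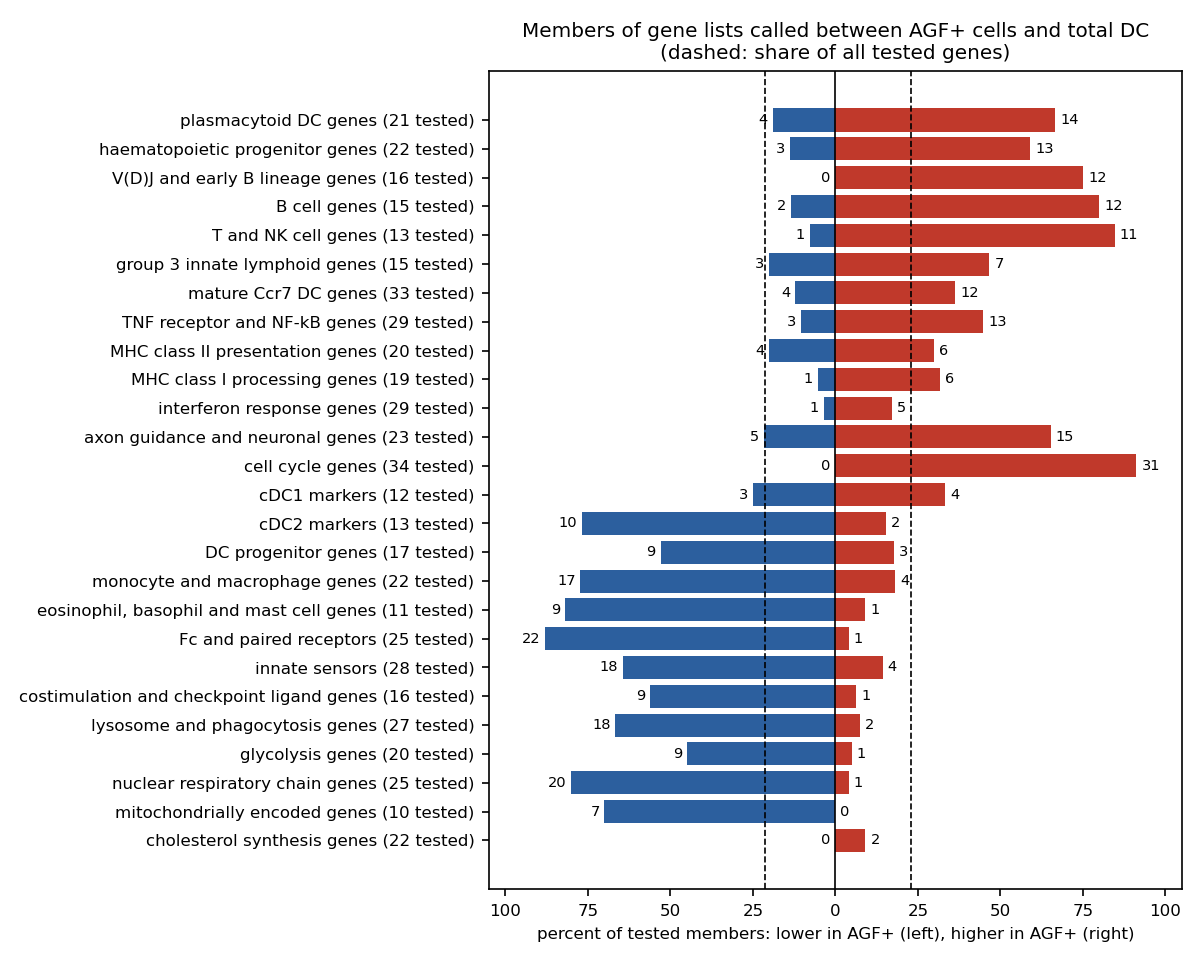
Percent of the tested members of 26 gene lists called lower (left, blue) or higher (right, red) in AGF+ cells, with their numbers; dashed lines are the shares of all tested genes, 21.3% and 23.0%. Plasmacytoid, lymphoid, progenitor and cell cycle lists extend to the right, and myeloid receptor, lysosome and respiratory chain lists to the left.

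Genes of monocytes and macrophages were lower. Of 22 tested, 17 fell and 4 rose (median -3.10), and their summed level was below that of total DCs in every library. Members such as Fcgr1 passed the filter on low counts through the total DC libraries, so that the count of falls is in part set by the filter. Adgre1, which encodes F4/80, was at 56.3, 58.5 and 62.3 CPM against 378, 628 and 462 CPM (-3.05 ± 0.18), and the complement gene C1qa at 1.73, 1.07 and 0.663 CPM against 20.3, 18.6 and 15 CPM (-3.96 ± 0.34). AGF+ replicate 3 was the lowest for Csf1r, Itgax and Ccr2 (6.53, 3.03 and 1.16 CPM against 60.9, 67.3 and 33.9 CPM). Mertk, a receptor for dying cells, fell by 2.33. Vcam1 (1.30 ± 0.24), Mrc1 (0.87 ± 0.24), Spic (0.84 ± 0.30) and Nr4a1 (1.59 ± 0.46) rose, of which 2 were called without the libraries numbered 2. Lyz2 was at 47.1, 17.9 and 20.2 CPM against 78.6, 60.8 and 22.3 CPM and did not pass (adjusted p = 0.149). Whether other cells in either gate had a part in these differences was not tested.

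Granulocyte genes were mostly lower. Of 11 tested genes of eosinophils, basophils and mast cells 9 fell and 1 rose, or 4 fell without the libraries numbered 2. Epx, and Mpo of the neutrophil genes below, passed the filter through the total DC libraries. The counts of falls are thus in part set by the filter. Siglecf (-2.16 ± 0.31), Cd200r3 (-4.66 ± 0.73) and Cpa3, carboxypeptidase of mast cells (-3.26 ± 0.67), fell, and Il5ra rose (2.56 ± 0.36). Epx, eosinophil peroxidase, was at 9.79, 0.179 and 0 CPM against 61.3, 51.9 and 23.9 CPM (-3.84 ± 0.89). Its call was lost with the DESeq2 Wald test (adjusted p = 0.116) and without the libraries numbered 2 (0.0740). Of 22 neutrophil genes 14 were under the filter, 4 fell and 1 rose, the repressor Gfi1 (2.08 ± 0.36), and 7 fell without AGF+ replicate 1. The haemoglobin gene Hba-a1 had no count and Hbb-bt was at 1.61 CPM or less in each of the 6 libraries. Both have close family members that could share reads, so these counts may understate their levels. Alas2, the erythroid enzyme of haem synthesis, was at 63, 63.4 and 61.8 CPM against 9.65, 11.4 and 9.99 CPM (2.60 ± 0.15). Of 5 tested erythroid genes 2 rose and 1, the carbonic anhydrase Car2 (-0.87 ± 0.19), fell, or 2 fell without total DC replicate 3 or AGF+ replicate 3.

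Few marker genes of platelets, stroma and thymic epithelium were measurable. Of 7 tested platelet genes 2 rose and 2 fell, and of 5 stromal and endothelial genes 2 rose and 2 fell. The integrin chain Itgb3 rose by 1.61 ± 0.27 and the von Willebrand factor gene Vwf fell by 1.96. Kdr, a VEGF receptor of endothelium, was at 45.9, 94.6 and 75.5 CPM against 1.97, 2.84 and 1.07 CPM (5.19 ± 0.63), and Pdgfrb at 30.3, 24.5 and 30.3 CPM against 2.76, 0.758 and 0.713 CPM (4.33 ± 0.43). The chemokine Cxcl12 (-2.72 ± 0.53) and osteopontin, Spp1 (-2.20 ± 0.33), were lower. The endothelial Cdh5 and Emcn and the stromal Col3a1 and Pdgfra were at or near 0 in both groups. Of 15 thymic epithelial genes 12 were under the filter, and Epcam, 1 of the other 3, fell by 1.13. Its call was lost without total DC replicate 2 (adjusted p = 0.119), AGF+ replicate 1 (0.0535) or AGF+ replicate 2 (0.0898), without the libraries numbered 2 (0.356), and in a fit of the 6 libraries alone (0.0511).

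Antigen presentation differed gene by gene. Of 20 class II genes 6 rose and 4 fell, near the shares of all tested genes. Ciita, the master regulator of class II transcription, was at 618, 645 and 534 CPM against 274, 390 and 220 CPM (1.02 ± 0.19), and the DO and Eb2 genes H2-Oa (1.64 ± 0.25) and H2-Eb2 (2.08 ± 0.25) rose with it. March1, the ligase that sends class II and CD86 to turnover, was at 4.42, 2.86 and 1.49 CPM against 33.1, 36.9 and 21.9 CPM (-3.40 ± 0.46), and the protease Ctss, cathepsin S, at 372, 293 and 285 CPM against 963, 773 and 829 CPM (-1.43 ± 0.17). Of 19 class I genes 6 rose and 1 fell, H2-Q7 by 1.78 ± 0.29 and the regulator Nlrc5 by 0.84 ± 0.21. Only 3 of these rises were called without the libraries numbered 2, and reads of H2 genes may be shared among paralogs. Among 16 costimulatory and checkpoint genes Icosl alone rose and 9 fell, with Lgals9 (-1.98 ± 0.24), Vsir, which encodes VISTA (-2.09 ± 0.30), Havcr2 (-1.34 ± 0.19) and Nectin2 (-0.97 ± 0.15) among them. Cd80 (-0.10, adjusted p = 0.694) and Cd40 (0.15, 0.423) did not pass.

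Fc receptors and paired receptors were mostly lower in AGF+ cells. Of 25 tested Fc and paired receptors 22 fell and 1, Siglecg, rose (median -3.38). Members such as Fcgr1 and Pilra passed the filter on low counts through the total DC libraries, so that the count of falls is in part set by the filter. The list shares members with the cDC2 markers, such as Sirpa, Clec12a and Fcer1g, and with the monocyte genes, such as Fcgr1 and Fcgr4. Fcgr1 was at 1.34, 1.43 and 0.497 CPM against 43.7, 69.1 and 50.1 CPM. Fcer1g, the signalling chain of several such receptors, was at 24.2, 22.3 and 19.2 CPM against 67.8, 72.9 and 66.3 CPM (-1.66 ± 0.15). Cd200r1 fell by 3.27, Clec4a1 by 4.76 and Fcgr4 by 4.62. Innate sensors also leaned to falls, with 18 of 28 lower and 4 higher (2 without the libraries numbered 2). Tlr4, the lipopolysaccharide receptor, was at 6.34, 8.57 and 7.45 CPM against 59.9, 88.8 and 133 CPM (-3.65 ± 0.35), and Tlr2, Tlr6 and Clec4n fell by 1.95, 2.01 and 3.97. Tlr7, the sensor of single-stranded RNA, went the other way, at 22.1, 34.5 and 30.8 CPM against 3.94, 1.89 and 0.892 CPM (3.71 ± 0.48), as did the RNA helicase gene Dhx58 (2.11 ± 0.19).

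Signalling ligands and receptors moved in both directions. Of 25 chemokines and receptors 13 fell and 4 rose. Ccr1 (-4.85 ± 0.43) was among the falls, and Ccr4, at 63.2, 45.3 and 47 CPM against 10.4, 7.96 and 8.56 CPM (2.53 ± 0.19), rose with Cxcr5, Ccr9 and Cxcl10. The 4 rises became 7 without total DC replicate 1. Of 14 tested cytokines 5 rose and 5 fell, or 3 fell without the libraries numbered 2. Il12a, the p35 chain of IL-12, was at 7.3, 14.3 and 12.1 CPM against 0.197, 0 and 0 CPM (181-fold, counting interval 32.1 to 7186), while Osm (-1.57 ± 0.23) and Tnfsf13b, which encodes BAFF (-1.84 ± 0.28), fell. Of 29 cytokine receptors 12 rose and 8 fell, Il6ra by 2.68, and 4 fell without the libraries numbered 2. Of 29 genes of TNF receptors and NF-κB 13 rose and 3 fell, or 8 rose without those libraries. Tnfaip3, which encodes the inhibitor A20, was at 307, 282 and 309 CPM against 180, 146 and 131 CPM (0.97 ± 0.12), and Tnfrsf11b, the decoy receptor osteoprotegerin, at 23.2, 50.7 and 52.8 CPM against 0.197, 4.36 and 5.17 CPM (3.67 ± 0.56). Tnfrsf9 (4-1BB) fell by 0.98 and the RANK gene Tnfrsf11a had means of 225 and 183 CPM (0.30, adjusted p = 0.152).

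Of 29 interferon response genes 5 rose and 1 fell, a share of rises below that of all genes. Mx2 was at 18.2, 28.4 and 24.7 CPM against 10.6, 10.2 and 12.1 CPM (1.11 ± 0.28), and Ifi204 fell by 3.18. The number of rises ran from 0 in a test against a 1.5-fold change to 14 with no filter on low counts, and was 10 with the replicate block. The calls of Isg15, Oas2, Oas3 and Irf1 were each lost without 1 or more single libraries. The number was 1 without AGF+ replicate 2, 2 without total DC replicate 3 and 3 without total DC replicate 2 or without the libraries numbered 2.

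Of 44 lineage transcription factors 14 rose and 16 fell, and 8 rose without the libraries numbered 2. Tcf7, which encodes TCF-1, was at 476, 352 and 366 CPM against 110, 39.6 and 35 CPM (2.70 ± 0.36), and its relative Lef1 rose by 1.77 ± 0.19. Spi1, which encodes PU.1, was at 71.6, 78.7 and 63 CPM against 110, 140 and 114 CPM (-0.77 ± 0.13), and Id2, an inhibitor of E proteins, at 160, 113 and 95.9 CPM against 319, 183 and 220 CPM (-0.97 ± 0.24). The groups did not overlap for any of these. Of 21 genes for partners of Aire 6 rose and 3 fell, not far from the shares of all tested genes. Top2a was among the rises (1.60 ± 0.25), Top1 fell by 0.66, and Crebbp (0.09, adjusted p = 0.509) did not pass. The 6 became 3 without any 1 of 4 libraries, total DC replicates 2 and 3 and AGF+ replicates 2 and 3, and 2 without the libraries numbered 2.

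Cell cycle genes were higher in AGF+ cells almost throughout. Of 34 tested 31 rose and 0 fell (median 1.10). Plk1, a mitotic kinase, was at 38, 36.6 and 49.9 CPM in AGF+ libraries and 13.4, 16.3 and 10.5 CPM in total DC libraries (1.63 ± 0.19). Foxm1, the factor of G2 and M genes, was at 32.8, 40 and 48.7 CPM against 12, 12.1 and 7.13 CPM (1.96 ± 0.23), and the replicative helicase gene Mcm2 at 77.8, 104 and 121 CPM against 32.5, 44.9 and 29.3 CPM (adjusted p = 1.9e-04). AGF+ replicate 3 was the highest for all 3, and every AGF+ library lay above the total DC libraries. Ccne1 (-0.56, adjusted p = 0.142), Ccne2 (0.31, 0.362) and Pcna (0.42, 0.227) did not pass.

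Metabolic and degradative genes leaned to falls of modest size. Of 27 lysosome and phagocytosis genes 18 fell and 2 rose (median -0.84). Asah1, acid ceramidase, was at 110, 108 and 113 CPM against 240, 282 and 303 CPM (-1.32 ± 0.12), Lipa fell by 1.75 and Axl by 3.15, whereas Ctsh, cathepsin H, was at 542, 500 and 534 CPM against 284, 207 and 198 CPM (1.19 ± 0.13). Of 25 nuclear genes of the respiratory chain 20 fell and 1, Ndufa4, rose (median -0.62). The rise was lost without total DC replicate 1 or AGF+ replicate 3, and 9 fell without the libraries numbered 2. Cox5a, a subunit of cytochrome c oxidase, fell by 1.16. Mitochondrially encoded transcripts made up 2.74% ± 0.172 (SD, n = 3) of counts in AGF+ and 3.47% ± 0.158 (SD, n = 3) in total DC libraries. In marrow AGF+ cells of AireKO mice they made up 3.3% ± 0.199 (SD, n = 3), with values of 3.14% to 3.52% that overlapped the 3.28% to 3.56% of total DCs. Of 10 such genes 7 fell, 4 without the libraries numbered 2. Of 20 glycolysis genes 9 fell and 1 rose. Pfkp, the platelet-type phosphofructokinase, was at 150, 142 and 123 CPM against 467, 805 and 783 CPM (-2.31 ± 0.20), Ldha fell by 0.87, and Pfkfb3 was higher (0.90 ± 0.20), a call that was lost without the libraries numbered 2 (0.80, adjusted p = 0.0809). Of 22 cholesterol synthesis genes 2 rose and 0 fell, below the background in both directions, and 0 rose without total DC replicate 3.

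**Figure D4:**
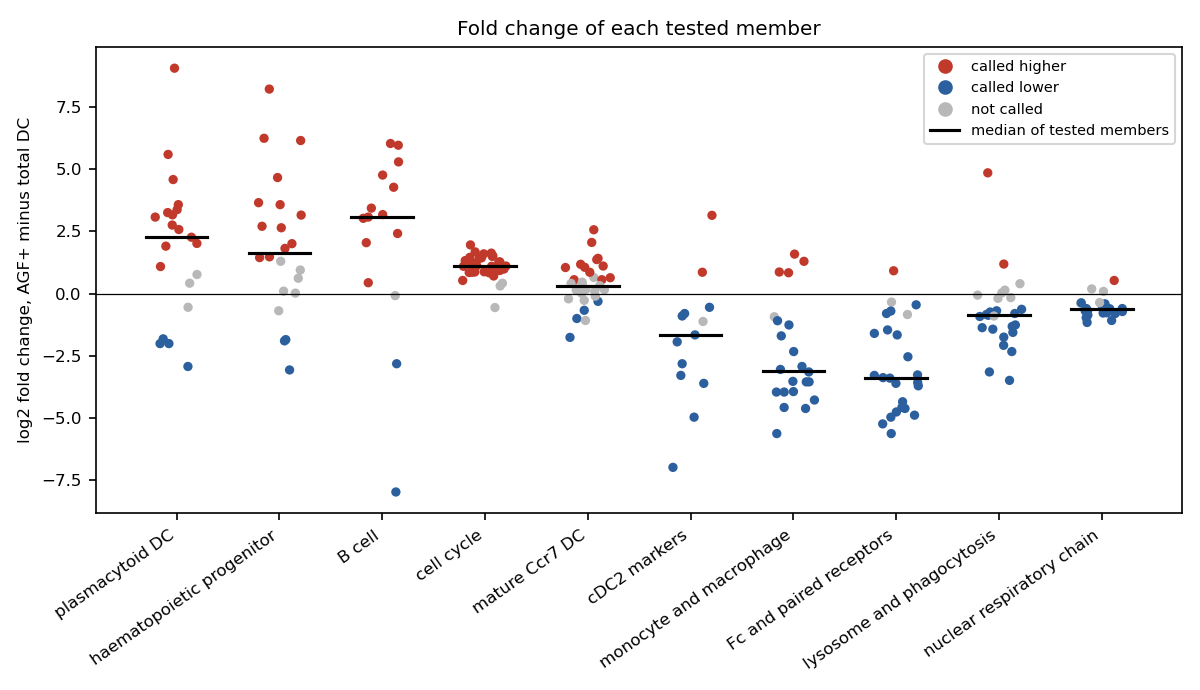
Log2 fold change, AGF+ minus total DC, of each tested member of 10 gene lists; points are genes coloured by call and bars are medians. Cell cycle members lie close together near 1.10 and respiratory chain members near -0.62, while plasmacytoid and B cell members spread over several units.

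Genes known from axons and synapses contributed some of the widest gaps. Of 23 tested 15 rose and 5 fell (median 1.26). Summed levels of the list went the other way, at 2423 to 2835 CPM in AGF+ and 2961 to 3567 CPM in total DC libraries. A further 5 were under the filter on low counts. Ache, Colq and Sema3f passed it through the AGF+ libraries, so that the count of rises is in part set by the filter. Colq, the collagen tail that anchors acetylcholinesterase, was at 86, 74.8 and 81.7 CPM in AGF+ libraries and 1.38, 0.758 and 0.535 CPM in total DC libraries (6.49 ± 0.28, adjusted p = 1.6e-07). Ache itself was at 9.03, 16.4 and 13.9 CPM with no count in total DCs. The guidance cue Sema3f was at 30.5, 14.8 and 19.7 CPM against 0.394, 0.568 and 0.357 CPM (5.55 ± 0.45). For each of these 3 genes the lowest AGF+ library lay well above the highest total DC library. Ephb4 was 23.2-fold higher with a counting interval of 6.09 to 197, while the plexins Plxna1 (-1.28 ± 0.19) and Plxnd1 (-0.82 ± 0.15) were lower. Of adhesion genes 4 of 24 rose and 11 fell, or 2 rose and 7 fell without the libraries numbered 2. The 11 falls include Itgam, Itgax and Cd24a, which carry no weight because the gates used them. Jaml, a partner of leukocyte adhesion, fell by 1.89.

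The reporter also split lymph node DCs, which were sorted as CD45+CD11c+MHCII+ and compared as AGF+ with AGF− cells of KI/+ mice in a fit that shares no library with the marrow one. There 21.1% of 15884 genes were called. Aire was higher there too (2.99 ± 0.16), which follows from the sort on its reporter. Several other marrow rises were also seen in lymph node: Icosl (1.57), Il1r1 (1.70), Colq (2.91), Sema3f (3.67), Ache (6.02), Hoxa9 (3.76), Tnfrsf11b (4.04) and Esam (1.93) on the log2 scale. Others ran against the marrow. Dntt, Siglech, Blk, Pax5, Ccr4 and Tlr7 rose in marrow and fell in lymph node, and in 1 fit of all 21 libraries the difference between the tissues was 7.10 ± 0.86 for Siglech (adjusted p = 6.2e-06), 9.99 ± 0.57 for Blk (3.9e-10), 8.88 ± 0.78 for Pax5 (1.7e-07) and 6.48 ± 0.60 for Tlr7 (2.5e-07). Top2a rose by 1.60 ± 0.25 in marrow and fell by 1.58 in lymph node (difference 3.16 ± 0.33, adjusted p = 1.1e-06). These genes were picked for their opposite calls, so the p-values of the difference add no support. The reference cells differ between the tissues, since lymph node AGF− cells came from the same gate as AGF+ cells and marrow total DCs did not.

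**Figure D5:**
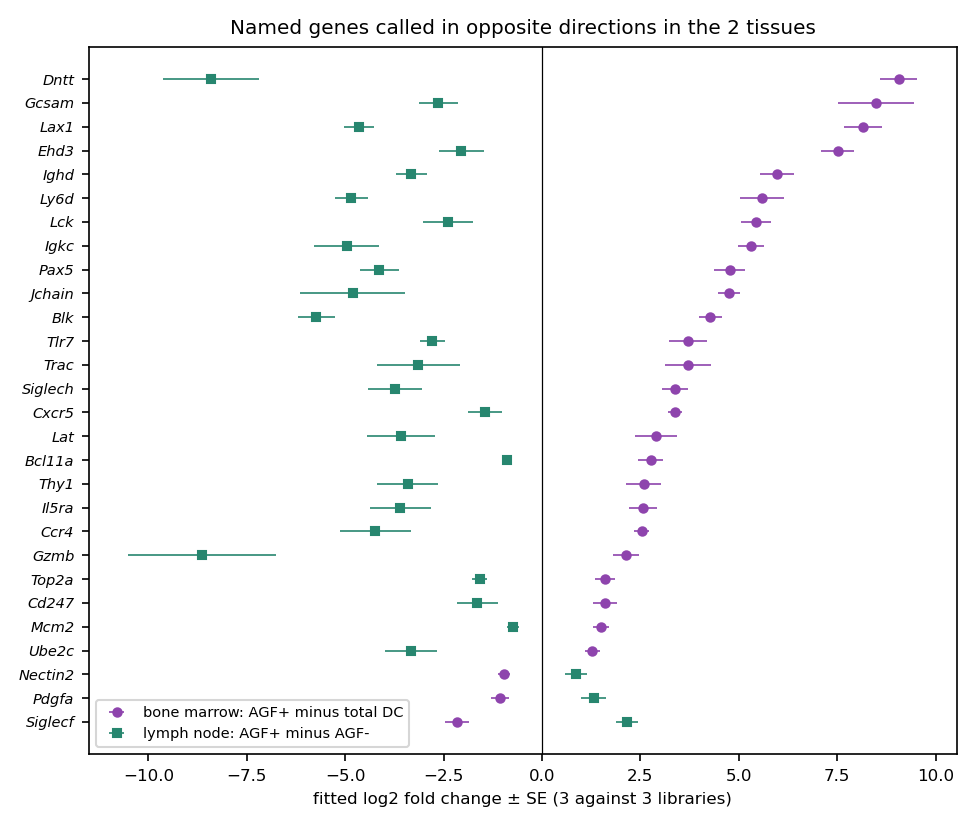
Fitted log2 fold change ± SE (3 against 3 libraries) of 28 named genes called in opposite directions in marrow (AGF+ minus total DC, circles) and lymph node (AGF+ minus AGF−, squares). Of these 25 are higher in marrow AGF+ cells and lower in lymph node AGF+ cells, and Siglecf, Nectin2 and Pdgfa are the reverse. The share of all genes with opposite calls was not counted.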

How the data were processed

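Per the labels' protocols, Ovation SoLo libraries were made from 1 ng of RNA and read paired-end. Tools listed in the submitters' processing notes include, with no roles given, STAR 2.7.3a, HTSeq 0.11.2, fastp 0.20.0 and edgeR 3.38.1, and the build is mm10 (GRCm38). For the annotation release, strand setting and treatment of multi-mapping reads no source is at hand. The deposited values are raw read counts of 55471 genes, and 241 IDs (0.0139% of counts) had no symbol in GENCODE vM21. A second, normalized table was left unused.

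Counts of the 9 marrow libraries were fitted with edgeR 4.0.16 (TMM, effective sizes 0.948 to 1.03 of totals, expression filter by group, quasi-likelihood F test) in R 4.3.3, contrasting AGF+ KI/+ with total DC, at an adjusted p under 0.05. limma 3.58.1 and DESeq2 1.42.0 gave alternatives. The script, tested on simulated data for this comparison (15503 genes), recovered 74 of 100 changes of 2-fold and 99 of 100 of 4-fold, with 9 false calls. The changed genes were drawn above a minimum mean level and were far fewer than those called in the data, and replicates were not paired. The recovery therefore does not cover genes of low level. Fold changes against groups with 0 counts are bounds from 3 counts over the group, and those with 1 to 3 counts carry an exact 95% interval. Neither covers more than counting error. Deviations from the group means correlated at 0.43, 0.34 and 0.35 for AGF+ and total DC libraries of equal number. For unequal numbers they correlated at -0.32 to 0.03, values that centring on 3 libraries in part forces down. Libraries of equal number thus shared some variation. The main fit had no term for replicate number, so its SEs and adjusted p-values do not use this pairing.

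The libraries compared and the 43 gene lists (863 genes, 717 tested) were chosen with earlier results of these data known. Genes named are Aire, the gate genes, the 12 largest rises and falls among calls of at least 2-fold with a mean log2 CPM of at least 3 and no overlap between groups, the up to 6 list members with the smallest p, members of marker lists, and a few genes of functional lists chosen after their values were seen. Some genes that the rule names are not reported here.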

Additional observations from a re-analysis of the deposited data

Results flagged for a closer look

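The marrow difference (AGF+ minus total DC) and the lymph node difference (AGF+ minus AGF−, KI/+) were called in opposite directions for 28 genes reported here, among 228 named genes followed. The size of the difference comes from 1 edgeR quasi-likelihood fit of all 21 libraries, in which 3620 of 17265 genes were called for that difference after Benjamini-Hochberg adjustment. Adjusted p of the 28 ran from 1.1e-10 to 0.00301, and since the genes were picked for opposite calls these p-values add no support. Of these 25 were higher in marrow AGF+ cells and lower in lymph node AGF+ cells. Most named genes were picked by their marrow test, and the share of all genes with opposite calls was not counted. Neither the 28 nor the 25 can therefore be set against a background. Values below are the marrow minus the lymph node log2 fold change ± SE.

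Lymphoid genes and receptors of these formed the longest group, and differed for Igkc by 10.24 ± 1.23, Blk by 9.99 ± 0.57, Ighd by 9.29 ± 0.71, Jchain by 9.55 ± 1.53, Pax5 by 8.88 ± 0.78, Lck by 7.81 ± 1.07, Trac by 6.84 ± 1.55, Thy1 by 5.98 ± 0.96, Lat by 6.48 ± 1.22, Cd247 by 3.22 ± 0.67, Il5ra by 6.13 ± 0.84 and Cxcr5 by 4.80 ± 0.54. Genes of plasmacytoid DCs and RNA sensing differed for Siglech by 7.10 ± 0.86, Ly6d by 10.43 ± 0.75, Bcl11a by 3.63 ± 0.34 and Tlr7 by 6.48 ± 0.60, and cell cycle genes for Top2a by 3.16 ± 0.33, Mcm2 by 2.23 ± 0.27 and Ube2c by 4.59 ± 0.64. Among the largest marrow rises, the difference was found for Ehd3 by 9.57 ± 0.84. A further 5 genes had at most 3 counts in at least 1 of the 4 groups (Dntt in 2 of them, 1 in each tissue), so that their fitted values depend on the prior count of the fit: Dntt by 17.42 ± 1.25, Lax1 by 12.82 ± 0.68, Gcsam by 11.18 ± 1.16, Gzmb by 10.70 ± 1.77 and Ccr4 by 6.72 ± 0.78.

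The reverse, lower in marrow and higher in lymph node AGF+ cells, was found for Siglecf by -4.34 ± 0.41, Nectin2 by -1.85 ± 0.29 and Pdgfa by -2.39 ± 0.40. The marrow call of Pdgfa was lost without the libraries numbered 2 (adjusted p = 0.0616). Gates and reference cells differ between the tissues, and the part of either in these differences cannot be told apart from that of the tissue.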

How the results depend on the processing

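The 3558 rises and 3308 falls became 1939 and 1274 in a test against a 1.5-fold change, and 2166 and 1692 without the libraries numbered 2. At an adjusted p under 0.01 there were 2450 rises and 2156 falls. Leaving out each of the 6 libraries in turn gave 2882 to 3881 rises and 2669 to 3669 falls. With the replicate block there were 3921 rises and 3712 falls, and the block changed no call of the 228 named genes followed. The cause of these shifts was not tested, other than the stricter thresholds and fewer samples by construction. Under the 18 alternatives run, 0 genes called in the main comparison were called in the opposite direction. Of the named genes, 50 lost their calls in the test against a 1.5-fold change and 26 without the libraries numbered 2. Genes near 1 CPM rest on about 5 or 6 counts a library.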

Other observations

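Genes of apoptosis were split in marrow AGF+ cells. Of 22 tested 4 rose and 8 fell, or 2 and 3 without the libraries numbered 2. Tnfsf10, which encodes the death ligand TRAIL, was at 33.4, 69.3 and 50.2 CPM in AGF+ libraries and 6.11, 5.87 and 5.53 CPM in total DC libraries (3.12 ± 0.35). The anti-apoptotic Bcl2 was at 73, 94.8 and 122 CPM against 19.5, 49.6 and 61 CPM (1.15 ± 0.34), and its relative Mcl1 at 549, 493 and 527 CPM against 854, 726 and 840 CPM (-0.63 ± 0.11). The groups did not overlap for these 3 genes.

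Of 21 immediate early and heat shock genes 3 rose and 7 fell, or 0 and 4 without the libraries numbered 2, and 0 rose without total DC replicate 3. Egr2 was at 14, 11.2 and 2.82 CPM against 71.9, 84.3 and 101 CPM (-3.21 ± 0.55). Of 24 genes of ribosome biogenesis and Myc targets 2 rose and 8 fell, or 4 fell without the libraries numbered 2 and 1 rose without any 1 of 5 single libraries, all but AGF+ replicate 1. Mycl, a Myc family gene of DCs, was at 8.26, 7.14 and 7.62 CPM against 41, 28.2 and 35.1 CPM (-2.18 ± 0.33). Of 17 growth factor and protease genes 2 rose and 6 fell, with 5 rises without total DC replicate 1 and 3 falls without the libraries numbered 2. The metalloprotease Adam19 was at 160, 83.9 and 93.6 CPM against 470, 238 and 237 CPM (-1.49 ± 0.34).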
